A study of Saccharomyces cerevisiae with 16 samples.

Results

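The genes described are 39 genes of sulfate assimilation and of methionine, cysteine and S-adenosylmethionine (SAM) metabolism in the budding yeast Saccharomyces cerevisiae, out of 5449 genes named on the array. They were taken from a list of genes for sulfur uptake, sulfate reduction, methionine, cysteine and SAM metabolism and their regulators by a rule that uses no expression value. The list itself was chosen with earlier results of these data known. Each of the 39 genes had 1 probe set, and all 39 varied between arrays and were tested. MET17 belongs to the same pathway, but it is deleted in the strain and is not counted among them. The genes lie on 14 chromosomes, and a few stand beside each other: MHT1 and MMP1 are adjacent on chromosome XII, with JLP1 and YCT1 nearby, and SAM3 and SAM4 are adjacent on chromosome XVI.

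The 16 arrays were Affymetrix Yeast Genome 2.0 arrays, 4 for each of 4 groups. The groups were cells given 0.05 mM acrolein, cells given 0.3 mM H2O2 and cells given 0.016 mM NEM, each for 1 h at 30 °C, and control cells that received none of these chemicals. The labels give NEM only as an abbreviation, taken here to stand for N-ethylmaleimide. All 4 groups were the laboratory strain BY4741, a haploid auxotroph with deletions in MET17, LEU2, URA3 and HIS3 that takes its methionine from the medium, and all were grown in YEPD, a rich medium of yeast extract, peptone and glucose, at 250 rpm to early exponential phase. RNA from whole cultures was measured, so fewer cells with a transcript and less of it per cell cannot be told apart. The labels number the replicates without saying whether each was its own culture. The p-values therefore cover only how the arrays of a group spread, and this spread may be technical. Same-numbered acrolein, NEM and control arrays deviated together, and the p-values take no account of this except where pairs are named.

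Yeast takes up sulfate, couples it to ATP, reduces it to sulfite and then to sulfide, and fixes the sulfide into homocysteine, from which methionine, SAM, cysteine and glutathione are made. Without Met17, the enzyme that joins sulfide to the homoserine skeleton, sulfide is fixed poorly, but the other steps remain encoded. These genes are known for their common control by the activator Met4, which binds DNA through Cbf1, Met28, Met31 and Met32 and is held in check by the ubiquitin ligase that carries Met30. Acrolein and NEM are electrophiles that react with thiols, and H2O2 is an oxidant, and glutathione, a thiol built from cysteine, takes part in the removal of all 3.

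Values are log2 signals, normalised across the arrays with GCRMA by the authors, so a difference of 1 is a 2-fold change. Differences are given ± SE from 1 limma model of all 16 arrays, and a gene was called when its adjusted p was under 0.05 over the 5785 probe sets tested. A signal at or below 5.15, the highest seen on probe sets for another yeast species, was treated as background. MET17 and URA3 read the lowest value of the data, 1.92, on 16 of 16 arrays, and LEU2 did so on 15 of 16, as the genotype of the strain has it. HIS3 was not checked. One array stood apart. On acrolein replicate 1 the ribosomal RNA probe sets averaged 15.48, against 4.38 to 12.64 on the other 15 arrays, and transcripts with probes at both ends gave a 3′ minus 5′ difference of 1.20, against 0.60 to 0.78. H2O2 replicates 4 and 1 had the lowest ribosomal RNA signal, 4.38 and 7.80. Where a result rests on acrolein replicate 1 it is also given without that array, and the part of RNA quality in them was not tested.

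More of the sulfur genes were called higher after NEM than after acrolein or H2O2. Of the 39 genes, 30 rose and 2 fell after NEM, while 26.4% of all tested probe sets rose and 32.2% fell, and 58.6% were called in either direction. The median difference of the 39 genes was 0.78, against -0.01 over all probe sets tested. Acrolein raised 26 of the 39 genes and lowered 3, beside 27.2% of all tested probe sets that rose and 36.9% that fell (64% called in all). The median of the 39 genes was 0.42 after acrolein, against -0.05 over all probe sets. H2O2 raised 7 genes and lowered 1, beside 9.23% of all probe sets that rose and 10.6% that fell (19.8% called in all), and the median of the 39 genes was 0.06, against -0.02 over all.

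The arrays were also compared without a model. In 28 of the 39 genes every NEM array read above every control array, as happened for 24.3% of all tested probe sets, and in 1 gene every NEM array read below (30.1% of all). After acrolein 25 genes lay wholly above the control arrays and 4 wholly below (24.5% and 33.3% of all probe sets), and after H2O2 9 lay above and 3 below (10.8% and 14.4% of all). Changes of at least 2-fold upward were called for 14 genes after NEM, beside 4.53% of all probe sets, for 7 after acrolein, beside 6.71%, and for none after H2O2, beside 1.76%. Without acrolein replicate 1, 25 genes rose and 2 fell after acrolein. With H2O2 replicates 1 and 4 also left out, 24 rose and 2 fell after acrolein, 8 rose and 0 fell after H2O2, and 30 rose and 2 fell after NEM. The 3 comparisons with the control share the same 4 control arrays, so they are set side by side and not counted as independent of each other.

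**Figure D1:**
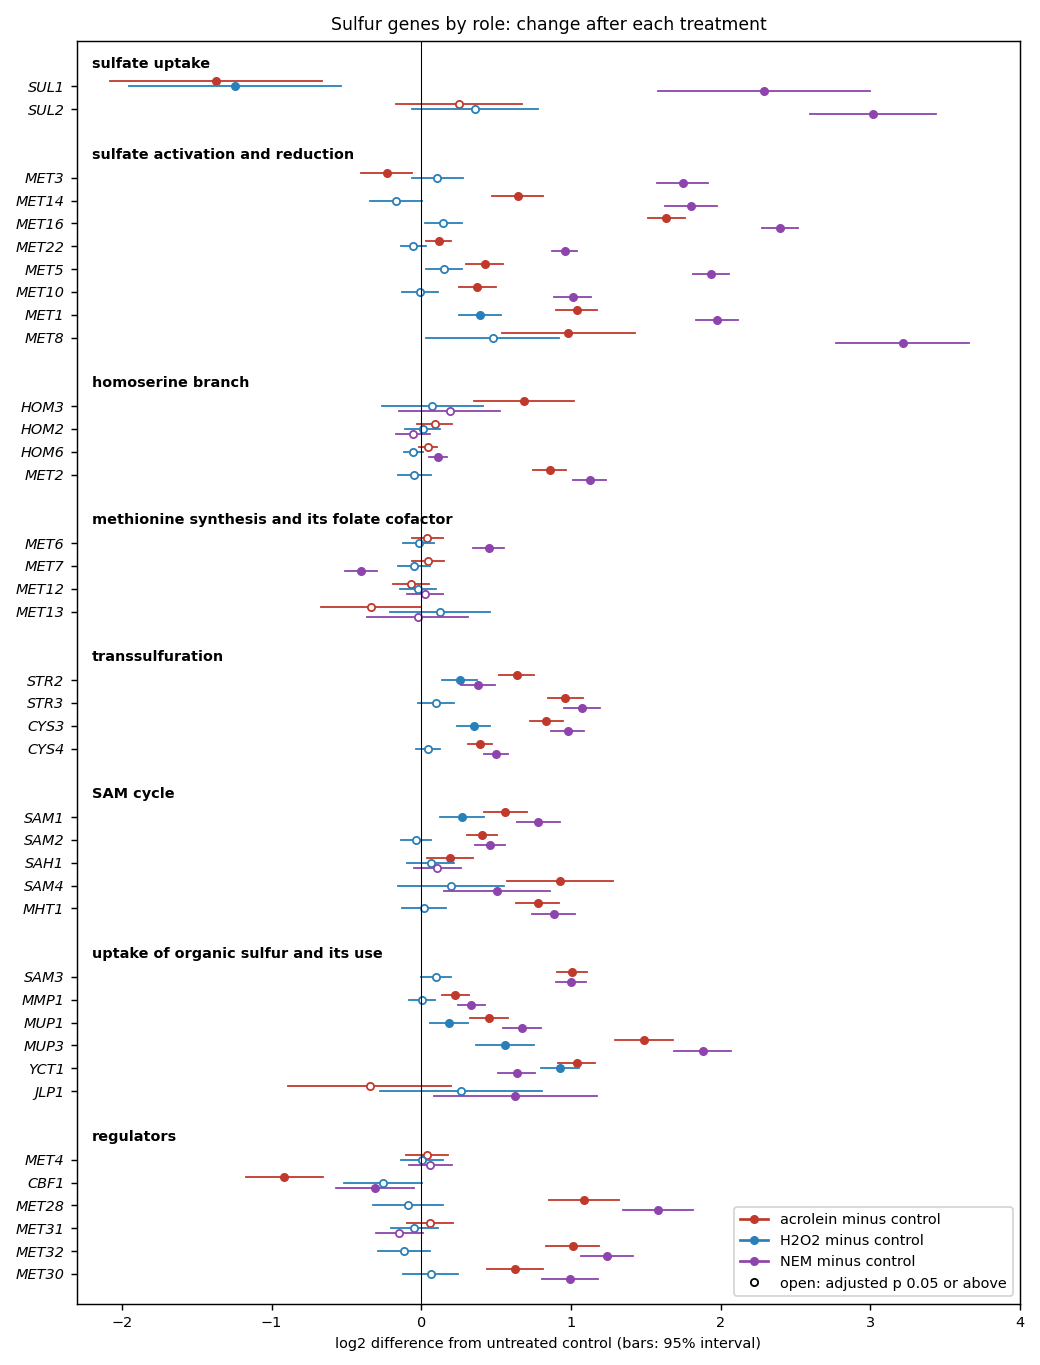
Difference from the control in log2 units (x axis) for each of the 39 sulfur genes (y axis, by role) after acrolein, H2O2 and NEM, with 95% intervals as bars and filled points for adjusted p under 0.05. The NEM points of the sulfate uptake, activation and reduction genes lie between 0.96 and 3.22, while the H2O2 points of the same genes lie between -1.25 and 0.48.

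Sulfate enters the cell through the high-affinity permeases Sul1 and Sul2. The SUL1 probe set read 6.24, 5.94, 4.98 and 6.69 on the acrolein arrays, 5.95, 5.59, 6.39 and 6.42 on the H2O2 arrays and 9.10, 9.53, 10.14 and 9.74 on the NEM arrays, against 7.10, 7.11, 7.63 and 7.50 on the control arrays. Every NEM array lay above every control array, and every acrolein and H2O2 array lay below. SUL1 thus rose 4.9-fold after NEM (log2 difference 2.29 ± 0.33, limma adjusted p = 4.54e-05), fell 2.59-fold after acrolein (-1.37 ± 0.33, adjusted p = 0.00237) and fell 2.37-fold after H2O2 (-1.25 ± 0.33, adjusted p = 0.0166). It was the only member of the 39 that fell after H2O2, and that call was lost without H2O2 replicate 2, where the difference was -1.08 (adjusted p = 0.0547). One acrolein array, replicate 3, read at 4.98, below the background level.

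Of the 3 treatments, only NEM gave a call for SUL2. It read 8.72, 9.32, 8.95 and 9.60 on the acrolein arrays, 9.36, 9.05, 9.14 and 9.46 on the H2O2 arrays and 11.95, 12.21, 11.68 and 11.81 on the NEM arrays, against 9.02, 9.02, 8.45 and 9.09 on the control arrays. The NEM arrays were all above 11, and the other 12 arrays overlapped between 8.45 and 9.60. SUL2 rose 8.11-fold after NEM (3.02 ± 0.19, limma adjusted p = 1.93e-08). Its difference was 0.25 ± 0.19 after acrolein (adjusted p = 0.279) and 0.36 ± 0.19 after H2O2 (adjusted p = 0.222), neither of which passed the test. The acrolein value was 0.39 without acrolein replicate 1 (adjusted p = 0.0894), 0.098 without acrolein replicate 4 and 0.10 without control replicate 3, and the H2O2 value was 0.21 without control replicate 3, all uncalled. The direct comparisons of NEM with H2O2 gave 3.54 ± 0.33 for SUL1 and 2.66 ± 0.19 for SUL2.

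Inside the cell, Met3 (ATP sulfurylase) and Met14 (adenylylsulfate kinase) activate sulfate, Met16 reduces the activated sulfate to sulfite, and Met22 clears the nucleotide that this step leaves behind. MET3 read 12.22, 12.55, 12.40 and 12.46 on the acrolein arrays, 12.77, 12.62, 12.73 and 12.85 on the H2O2 arrays and 14.20, 14.54, 14.44 and 14.37 on the NEM arrays, against 12.62, 12.64, 12.72 and 12.56 on the control arrays. MET3 rose 3.36-fold after NEM (1.75 ± 0.079, limma adjusted p = 5.66e-10), and its difference after H2O2 was 0.11 ± 0.079 (adjusted p = 0.382). Acrolein lowered it by a small amount (-0.23 ± 0.079, adjusted p = 0.0202), with every acrolein array below every control array. This fall missed the threshold without acrolein replicate 1 (-0.17, adjusted p = 0.0676) and without control replicate 3 (-0.20, adjusted p = 0.0562).

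MET14, the next gene of the chain, rose after acrolein and after NEM. MET14 read 13.57, 13.84, 13.65 and 14.01 on the acrolein arrays, 12.91, 13.01, 12.97 and 12.92 on the H2O2 arrays and 14.95, 14.99, 14.95 and 14.82 on the NEM arrays, against 13.16, 13.03, 13.08 and 13.22 on the control arrays. Acrolein and NEM arrays lay wholly above the control arrays, and the NEM arrays wholly above the acrolein arrays. The differences were 0.64 ± 0.08 after acrolein (limma adjusted p = 1.17e-05) and 1.80 ± 0.08 after NEM (adjusted p = 4.45e-10). MET14 was not called after H2O2.

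MET16 was the gene of the 39 with the largest rise after acrolein. It read 13.73, 13.82, 13.74 and 13.92 on the acrolein arrays, 12.21, 12.37, 12.43 and 12.24 on the H2O2 arrays and 14.63, 14.56, 14.61 and 14.44 on the NEM arrays, against 12.13, 12.20, 12.18 and 12.15 on the control arrays. The control arrays spanned less than 0.1, and the acrolein and NEM arrays stood more than 1.5 above them. MET16 rose 3.11-fold after acrolein (1.64 ± 0.057, limma adjusted p = 4.39e-11) and 5.26-fold after NEM (2.40 ± 0.057, adjusted p = 9.83e-13), and it was not called after H2O2. MET22 rose by 0.96 ± 0.039 after NEM (adjusted p = 2e-10). After acrolein its difference was 0.12 ± 0.039 (adjusted p = 0.0204), with arrays that overlapped the control arrays, and this call was lost without acrolein replicate 1 (0.10, adjusted p = 0.0566), and also without acrolein replicate 2 (0.088, adjusted p = 0.0679) or control replicate 3 (0.099, adjusted p = 0.0605).

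Sulfite reductase turns sulfite into sulfide. Met5 and Met10 are its subunits, and Met1 and Met8 make siroheme, the iron-containing cofactor that it needs. MET5 read 13.41, 13.44, 13.14 and 13.39 on the acrolein arrays, 13.03, 13.07, 13.11 and 13.10 on the H2O2 arrays and 14.78, 14.91, 14.85 and 14.91 on the NEM arrays, against 12.87, 12.93, 12.93 and 12.97 on the control arrays. Acrolein replicate 3 was the lowest of its group and still above all controls. MET5 rose by 0.42 ± 0.056 after acrolein (limma adjusted p = 2.28e-05) and by 1.94 ± 0.056 after NEM (adjusted p = 8.1e-12). MET10, the other subunit, rose by 0.37 ± 0.056 with acrolein (adjusted p = 6.6e-05) and by 1.01 ± 0.056 after NEM (adjusted p = 4.52e-09), and neither subunit was called after H2O2.

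Both siroheme genes rose after acrolein and after NEM. MET1 read 13.09, 13.10, 12.99 and 13.24 on the acrolein arrays, 12.39, 12.38, 12.44 and 12.62 on the H2O2 arrays and 13.96, 14.07, 14.08 and 14.06 on the NEM arrays, against 12.05, 11.95, 12.18 and 12.08 on the control arrays. Each treatment's arrays lay wholly above the control arrays, in the order H2O2, acrolein, NEM, with no overlap between neighbours. MET1 rose by 1.04 ± 0.064 after acrolein (limma adjusted p = 1.41e-08), by 0.39 ± 0.064 after H2O2 (adjusted p = 0.000761) and by 1.98 ± 0.064 after NEM (adjusted p = 2.2e-11). It was the only one of the 8 activation and reduction genes called after H2O2, beside 19.8% of all tested probe sets. The 8 differences after H2O2 ran from -0.17 to 0.48.

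MET8 showed the largest rise of all 39 genes. It read 9.76, 9.29, 9.37 and 10.07 on the acrolein arrays, 8.83, 9.03, 9.16 and 9.45 on the H2O2 arrays and 11.65, 11.80, 11.91 and 12.07 on the NEM arrays, against 8.90, 8.31, 8.33 and 9.02 on the control arrays. The control arrays formed a pair near 8.3 and a pair near 9, and all NEM arrays were above 11.6. MET8 rose 9.3-fold after NEM (3.22 ± 0.21, limma adjusted p = 1.79e-08) and 1.98-fold after acrolein (0.98 ± 0.21, adjusted p = 0.000928). Among the NEM to H2O2 comparisons of the activation and reduction genes, the largest differences were 2.74 ± 0.21 for MET8 and 2.25 ± 0.057 for MET16.

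Across these 10 genes of sulfate uptake, activation and reduction, 10 rose after NEM with a median of 1.96 (0.96 to 3.22), beside 26.4% of all tested probe sets. In 10 of 10 every NEM array read above every control array, beside 24.3% of all. After acrolein 7 rose and 2 fell, with a median of 0.40 (-1.37 to 1.64), beside 27.2% and 36.9% of all. After H2O2 1 rose and 1 fell, with a median of 0.13 (-1.25 to 0.48), which is near the 9.23% and 10.6% of all probe sets.

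**Figure D2:**
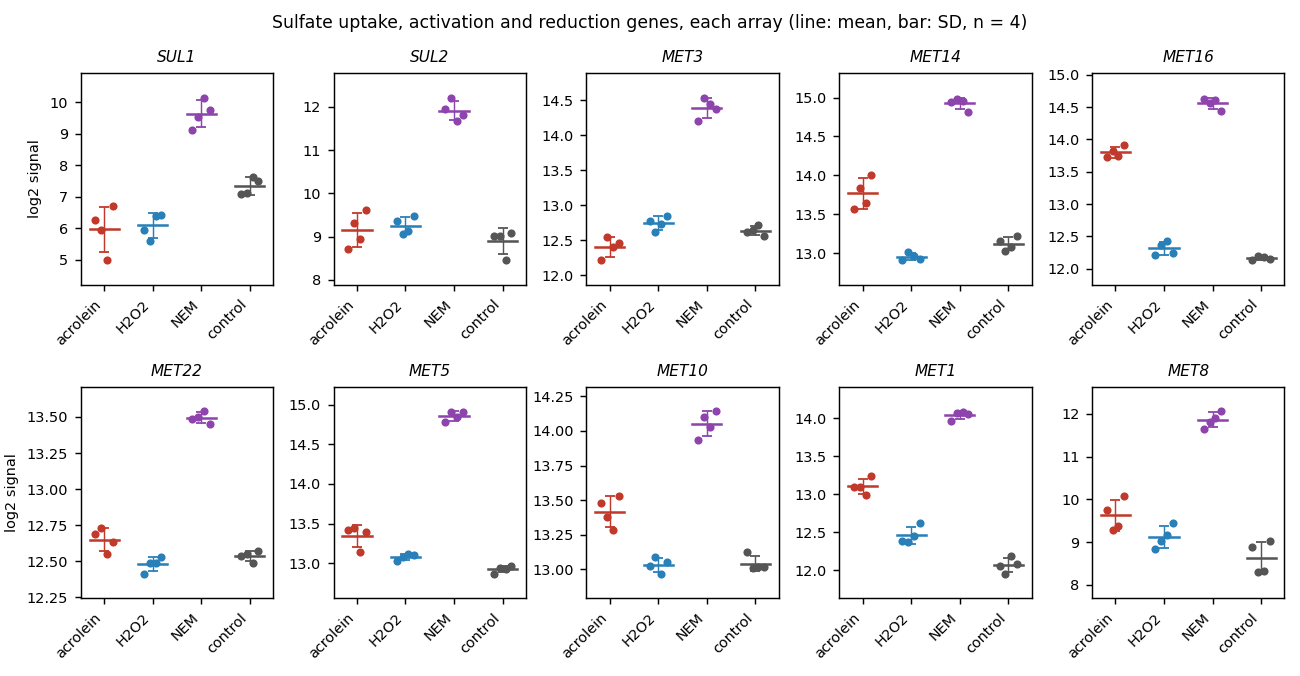
Log2 signal (y axis, its own range in each panel) on every array of the acrolein, H2O2, NEM and control groups for the 10 genes of sulfate uptake, activation and reduction, with the group mean as a line and the SD as a bar (4 arrays each). The NEM points lie above all other points in each of the 10 panels, and the acrolein points of SUL1 and MET3 lie below the control points.

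The homoserine branch supplies the carbon skeleton of homocysteine: Hom3 (aspartate kinase), Hom2 and Hom6 make homoserine, and Met2 acetylates it. MET2 rose 1.81-fold after acrolein (0.86 ± 0.051, limma adjusted p = 9.69e-09) and 2.18-fold after NEM (1.13 ± 0.051, adjusted p = 5.99e-10), and averaged 14.40 ± 0.10 on the acrolein arrays, 13.49 ± 0.016 on the H2O2 arrays and 14.66 ± 0.072 on the NEM arrays, against 13.54 ± 0.074 on the control arrays (SD, n = 4 each). HOM3 rose by 0.69 ± 0.16 after acrolein (adjusted p = 0.00167). After NEM the HOM3 difference was 0.19 ± 0.16 (adjusted p = 0.32). Control replicate 1 read 12.15 for HOM3 while the other control arrays read 11.51 to 11.54, and without it the NEM difference was 0.35 (adjusted p = 0.0359). HOM6 rose by 0.11 ± 0.028 after NEM (adjusted p = 0.00427), and HOM2 was called in none of the comparisons with the control. No gene of this branch was called after H2O2, beside 19.8% of all tested probe sets, and the 4 differences ran from -0.05 to 0.07.

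Methionine synthase (Met6) methylates homocysteine with a methyl group from folate, Met12 and Met13 are the methylenetetrahydrofolate reductases that prepare that methyl group, and Met7 lengthens the glutamate tail of the folate. None of the 4 was called after acrolein or after H2O2, beside 64% and 19.8% of all tested probe sets. The acrolein differences were 0.04 ± 0.048 for MET6, 0.043 ± 0.05 for MET7, -0.068 ± 0.056 for MET12 and -0.34 ± 0.16 for MET13. The MET13 difference had an adjusted p of 0.0726, and of 0.0466 when replicates with the same number were taken as pairs. Acrolein replicate 1 was the lowest MET13 array at 12.01, and without it the difference was -0.16 (adjusted p = 0.232). Without acrolein replicate 2 it was -0.42 (adjusted p = 0.0429).

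NEM moved 2 of these 4 genes, in opposite directions, beside 58.6% of all tested probe sets called. MET6 rose by 0.45 ± 0.048 (limma adjusted p = 3.12e-06), averaging 15.40 ± 0.061 on NEM arrays against 14.95 ± 0.051 on control arrays (SD, n = 4 each). MET7 fell by 0.40 on the log2 scale (SE 0.05, adjusted p = 1.18e-05), averaging 11.92 ± 0.12 on NEM arrays against 12.33 ± 0.058 on control arrays. MET7 was the only gene of the 39 whose NEM arrays all read below its control arrays.

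Transsulfuration converts homocysteine to cysteine through Cys4 and Cys3, and cysteine back to homocysteine through Str2 and Str3. All 4 genes rose after acrolein and all 4 after NEM, with medians of 0.74 and 0.74, beside 27.2% and 26.4% of all tested probe sets. In each case every treated array read above every control array, as was so for 24.5% (acrolein) and 24.3% (NEM) of all. CYS3, cystathionine gamma-lyase, read 15.27, 15.33, 15.23 and 15.38 on the acrolein arrays, 14.70, 14.83, 14.75 and 14.98 on the H2O2 arrays and 15.43, 15.44, 15.43 and 15.47 on the NEM arrays, against 14.49, 14.47, 14.44 and 14.46 on the control arrays. It rose by 0.84 ± 0.05 after acrolein (limma adjusted p = 1.08e-08), by 0.35 ± 0.05 after H2O2 (adjusted p = 0.00025) and by 0.98 ± 0.05 after NEM (adjusted p = 1.99e-09). CYS4, cystathionine beta-synthase, rose by 0.39 ± 0.037 on acrolein arrays (adjusted p = 9.23e-07) and by 0.50 ± 0.037 on NEM arrays (adjusted p = 7.96e-08).

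The reverse direction, from cysteine to homocysteine, starts with STR2, cystathionine gamma-synthase. It read 13.37, 13.44, 13.38 and 13.50 on the acrolein arrays, 13.11, 13.06, 12.99 and 13.01 on the H2O2 arrays and 13.26, 13.15, 13.00 and 13.26 on the NEM arrays, against 12.79, 12.74, 12.78 and 12.83 on the control arrays. STR2 rose by 0.64 ± 0.054 after acrolein (limma adjusted p = 3.4e-07), by 0.26 ± 0.054 after H2O2 (adjusted p = 0.00449) and by 0.38 ± 0.054 after NEM (adjusted p = 4.24e-05). Every acrolein array of STR2 lay above every NEM array. STR3, cystathionine beta-lyase, rose by 0.96 ± 0.055 after acrolein and by 1.08 ± 0.055 after NEM (adjusted p = 6.15e-09 and 1.91e-09). CYS4 and STR3 were not called after H2O2.

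SAM synthetase, encoded by SAM1 and SAM2, turns methionine into SAM, Sah1 breaks down the S-adenosylhomocysteine left after methyl transfer, and Mht1 and Sam4 are homocysteine methyltransferases that return homocysteine to methionine. The SAM1 probe set read 14.44, 14.64, 14.63 and 14.74 on the acrolein arrays, 14.26, 14.35, 14.29 and 14.41 on the H2O2 arrays and 14.79, 14.82, 14.80 and 14.92 on the NEM arrays, against 14.18, 13.92, 14.12 and 13.99 on the control arrays. Each treated array lay above every control array. SAM1 rose by 0.56 ± 0.068 after acrolein (limma adjusted p = 9.15e-06), by 0.27 ± 0.068 after H2O2 (adjusted p = 0.012) and by 0.78 ± 0.068 after NEM (adjusted p = 3.84e-07). SAM2 rose by 0.41 ± 0.046 after acrolein and by 0.46 ± 0.046 after NEM (adjusted p = 4.87e-06 and 1.47e-06), and was not called after H2O2. The SAM1 and SAM2 transcripts are very similar, and how far their probe sets share signal was not tested.

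MHT1 rose by 0.78 ± 0.067 after acrolein (limma adjusted p = 4.1e-07) and by 0.89 ± 0.067 after NEM (adjusted p = 1.01e-07). SAM4 rose by 0.93 ± 0.16 with acrolein (adjusted p = 0.000245) and by 0.51 ± 0.16 after NEM (adjusted p = 0.0172), the second with arrays that overlapped the control arrays and with a call that was lost without NEM replicate 3 or without control replicate 2 or 4 (0.42 to 0.44). SAH1 changed least of the 5 after acrolein and after NEM. Its acrolein difference was 0.19 ± 0.072 (adjusted p = 0.0318), lost without acrolein replicate 3 or control replicate 2 or 4 (0.15 to 0.17), and its NEM difference was not called. Of the 9 transsulfuration and SAM genes together, 9 rose after acrolein, 3 after H2O2 and 8 after NEM, beside 27.2%, 9.23% and 26.4% of all tested probe sets.

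Yeast also takes up sulfur in organic form. Mup1 and Mup3 carry methionine, Sam3 carries SAM, Mmp1 carries S-methylmethionine, Yct1 carries cysteine, and Jlp1 is a dioxygenase that frees sulfite from sulfonates. MUP3 read 14.14, 14.61, 14.23 and 14.42 on the acrolein arrays, 13.49, 13.43, 13.32 and 13.44 on the H2O2 arrays and 14.81, 14.80, 14.64 and 14.71 on the NEM arrays, against 12.95, 12.95, 12.71 and 12.82 on the control arrays. The 4 groups did not overlap, and ran in the order control, H2O2, acrolein, NEM. MUP3 rose 2.81-fold after acrolein (1.49 ± 0.09, limma adjusted p = 1.04e-08), 1.48-fold after H2O2 (0.56 ± 0.09, adjusted p = 0.000603) and 3.68-fold after NEM (1.88 ± 0.09, adjusted p = 9.14e-10).

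YCT1 ran in another order of treatments than MET1 and MUP3. It read 12.38, 12.40, 12.41 and 12.28 on the acrolein arrays, 12.23, 12.39, 12.23 and 12.18 on the H2O2 arrays and 12.03, 12.00, 11.95 and 11.89 on the NEM arrays, against 11.45, 11.31, 11.19 and 11.37 on the control arrays. The NEM arrays lay below all acrolein and H2O2 arrays and above all control arrays. YCT1 rose 2.05-fold after acrolein (1.04 ± 0.058, limma adjusted p = 4.91e-09), 1.9-fold after H2O2 (0.93 ± 0.058, adjusted p = 6.42e-08) and 1.56-fold after NEM (0.64 ± 0.058, adjusted p = 6.5e-07). It had the largest rise of the 39 genes after H2O2. Tested directly, YCT1 was higher after acrolein than after NEM by 0.40 ± 0.058 (adjusted p = 0.000114), and after NEM it was lower than after H2O2, with a difference of -0.29 ± 0.058 (adjusted p = 0.000858).

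SAM3 and MUP1 rose after acrolein and after NEM. SAM3 read 14.33, 14.18, 14.23 and 14.27 on the acrolein arrays, 13.33, 13.28, 13.40 and 13.37 on the H2O2 arrays and 14.31, 14.20, 14.18 and 14.28 on the NEM arrays, against 13.21, 13.20, 13.36 and 13.21 on the control arrays. It rose by 1.01 ± 0.046 after acrolein (limma adjusted p = 6.71e-10) and by 1.00 ± 0.046 after NEM (adjusted p = 6.6e-10). MUP1 read 14.69, 14.95, 14.87 and 14.94 on the acrolein arrays, 14.52, 14.60, 14.65 and 14.61 on the H2O2 arrays and 15.07, 15.10, 15.03 and 15.13 on the NEM arrays, against 14.50, 14.34, 14.49 and 14.32 on the control arrays. It rose by 0.45 ± 0.058 with acrolein (adjusted p = 1.67e-05) and by 0.67 ± 0.058 after NEM (adjusted p = 3.93e-07). Its difference after H2O2 was 0.19 ± 0.058 (adjusted p = 0.0393), a call that was lost on leaving out any 1 of 7 arrays (control 2 or 4, H2O2 2, 3 or 4, NEM 1 or 2), where it lay between 0.16 and 0.19.

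MMP1 rose by 0.23 ± 0.041 after acrolein and by 0.34 ± 0.041 after NEM (limma adjusted p = 0.000327 and 1.21e-05). JLP1 stayed near the background on all arrays. It read 4.76, 4.82, 4.62 and 5.10 on the acrolein arrays, all under the background level, 5.005, 5.10, 5.72 and 5.91 on the H2O2 arrays and 5.31, 6.05, 5.39 and 6.44 on the NEM arrays, against 5.14, 5.23, 5.32 and 4.99 on the control arrays. Set against that level, JLP1 was at least 1.57-fold lower after acrolein than after NEM (measured means 4.82 ± 0.20 and 5.80 ± 0.54, SD, n = 4 each, limma adjusted p = 0.00634). Its NEM to control difference was 0.63 ± 0.25 (adjusted p = 0.0459), with overlapping arrays, and it was lost without any 1 of the control arrays, without acrolein replicate 1, 2 or 3 or without NEM replicate 2 or 4 (0.42 to 0.68). After quantile normalisation of the deposited values it was 1.26 (adjusted p = 0.00125).

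**Figure D3:**
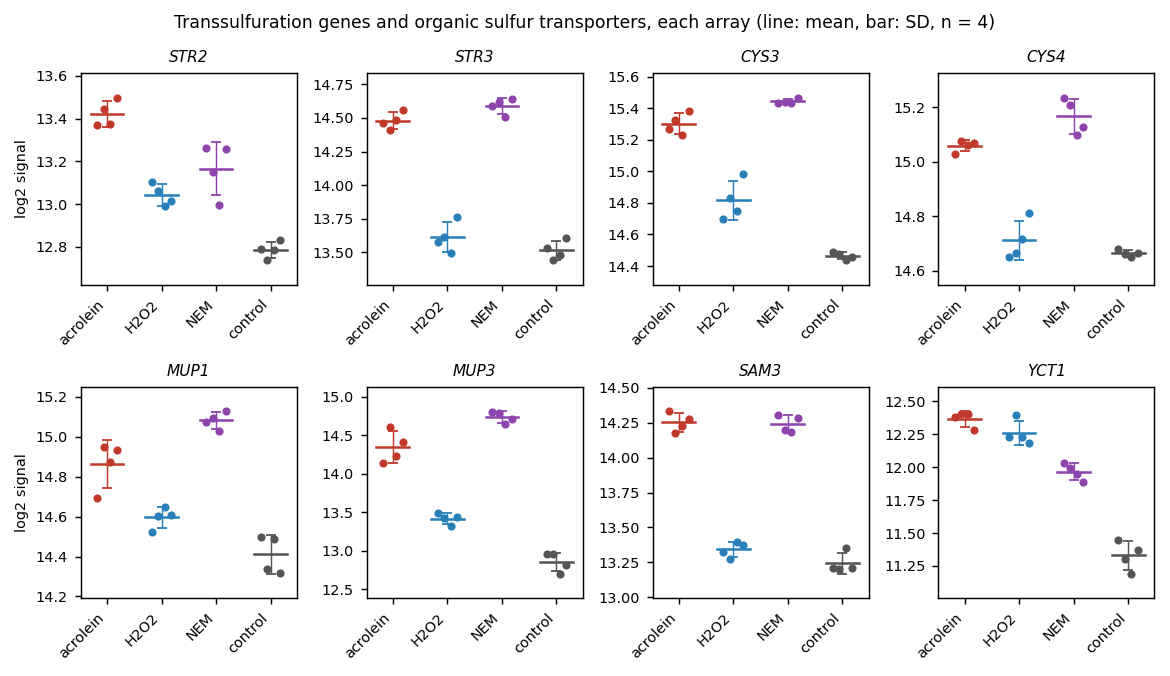
Log2 signal (y axis, its own range in each panel) on every array of the acrolein, H2O2, NEM and control groups for the transsulfuration genes STR2, STR3, CYS3 and CYS4 and the transporter genes MUP1, MUP3, SAM3 and YCT1, with the mean as a line and the SD as a bar (4 arrays each). The acrolein and NEM points lie above the control points in all 8 panels, and in the YCT1 panel the H2O2 points lie above the NEM points.

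Of the 6 regulators, the activator MET4 itself did not pass the test in any comparison with the control. It read 12.62, 12.63, 12.48 and 12.59 on the acrolein arrays, 12.71, 12.56, 12.42 and 12.51 on the H2O2 arrays and 12.66, 12.68, 12.49 and 12.59 on the NEM arrays, against 12.49, 12.63, 12.44 and 12.62 on the control arrays. All 4 groups overlapped. The difference was 0.036 ± 0.065 after acrolein (95% interval -0.10 to 0.18, limma adjusted p = 0.662) and 0.062 ± 0.065 after NEM (95% interval -0.079 to 0.20, adjusted p = 0.446).

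Among the DNA-binding partners of Met4, MET28 and MET32 rose and CBF1 fell after acrolein. MET28, a bZIP cofactor, read 12.51, 12.63, 12.67 and 12.51 on the acrolein arrays, 11.31, 11.54, 11.68 and 11.08 on the H2O2 arrays and 13.14, 13.10, 13.11 and 12.94 on the NEM arrays, against 11.50, 11.38, 11.68 and 11.40 on the control arrays. The acrolein arrays lay wholly above the control arrays and the NEM arrays wholly above the acrolein arrays, with the H2O2 arrays spread across the control range. MET28 rose 2.12-fold after acrolein (1.09 ± 0.11, limma adjusted p = 1.74e-06) and 2.99-fold after NEM (1.58 ± 0.11, adjusted p = 3.87e-08).

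MET31 and MET32 encode related zinc-finger proteins that bind the same DNA element, and of the pair MET32 was called after acrolein and after NEM. MET32 read 13.73, 13.96, 13.98 and 13.80 on the acrolein arrays, 12.81, 12.73, 12.67 and 12.76 on the H2O2 arrays and 14.20, 14.19, 14.10 and 13.89 on the NEM arrays, against 12.87, 13.02, 12.80 and 12.72 on the control arrays. It rose 2.02-fold after acrolein (1.01 ± 0.081, limma adjusted p = 1.91e-07) and 2.37-fold after NEM (1.24 ± 0.081, adjusted p = 2.14e-08). MET31 read 12.22, 12.43, 12.35 and 12.28 on the acrolein arrays, 12.22, 12.20, 12.27 and 12.17 on the H2O2 arrays and 12.05, 12.04, 12.30 and 12.07 on the NEM arrays, against 12.14, 12.46, 12.20 and 12.25 on the control arrays. Its groups overlapped, and it was called in none of the comparisons with the control (acrolein difference 0.058 ± 0.073, 95% interval -0.10 to 0.22, adjusted p = 0.511).

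CBF1, which encodes a helix-loop-helix protein that binds upstream of many MET genes and also at centromeres, fell after acrolein. It read 9.88, 10.28, 10.36 and 10.38 on the acrolein arrays, 10.93, 10.79, 10.79 and 11.02 on the H2O2 arrays and 10.83, 10.83, 10.73 and 10.92 on the NEM arrays, against 11.33, 10.86, 11.05 and 11.31 on the control arrays. The acrolein arrays were all below 10.4 and the other 12 arrays all above 10.7. CBF1 fell 1.89-fold after acrolein (-0.92 ± 0.12, limma adjusted p = 1.99e-05). Its NEM difference was -0.31 ± 0.12 (adjusted p = 0.0403), and that call was lost without control replicate 1 or 4 or NEM replicate 1, 2 or 3 (-0.31 to -0.25).

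MET30, the F-box subunit of the ubiquitin ligase that restrains Met4, rose after acrolein and after NEM. It read 12.89, 12.82, 12.80 and 12.92 on the acrolein arrays, 12.24, 12.35, 12.08 and 12.50 on the H2O2 arrays and 13.23, 13.22, 13.10 and 13.34 on the NEM arrays, against 12.35, 12.23, 12.04 and 12.30 on the control arrays. MET30 rose 1.54-fold after acrolein (0.63 ± 0.086, limma adjusted p = 2.84e-05) and 1.99-fold after NEM (0.99 ± 0.086, adjusted p = 3.84e-07). After H2O2, where 19.8% of all tested probe sets were called, none of the 6 regulators was, and the 6 differences ran from -0.26 to 0.06. At that share a set this small can lack a call without differing from the other probe sets.

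**Figure D4:**
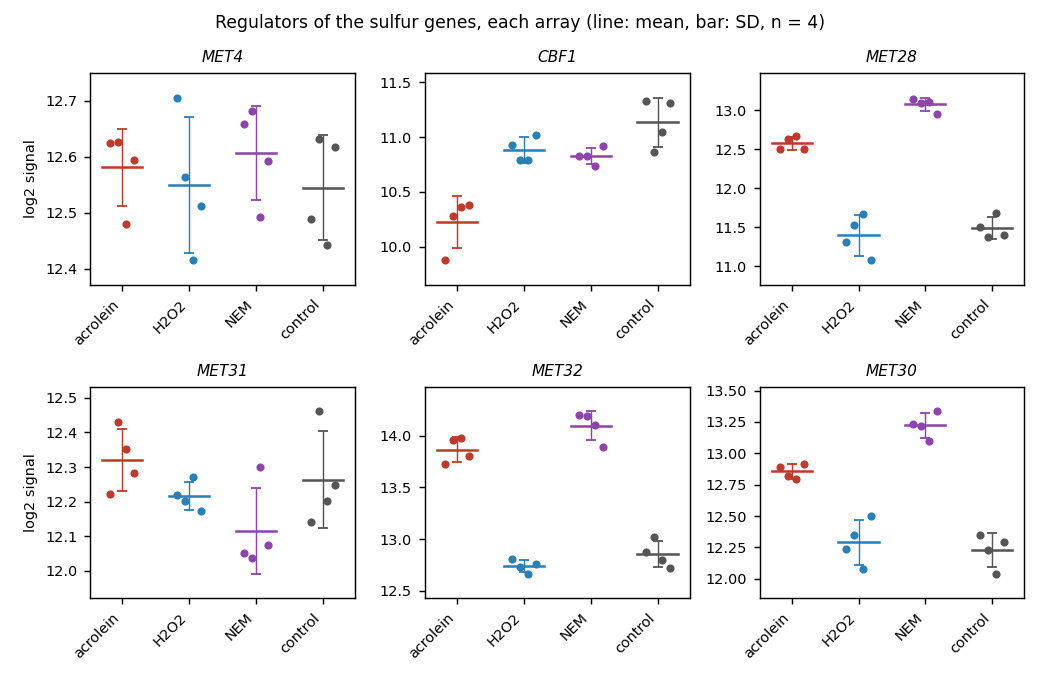
Log2 signal (y axis, its own range in each panel) on every array of the acrolein, H2O2, NEM and control groups for the regulators MET4, CBF1, MET28, MET31, MET32 and MET30, with the mean as a line and the SD as a bar (4 arrays each). MET28, MET32 and MET30 are high on the acrolein and NEM arrays, CBF1 is low on the acrolein arrays, and MET4 spans 12.42 to 12.71 over all 16 arrays.

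The treatments were then compared with each other, in the same model of all 16 arrays, so that the control arrays enter the estimate of the spread but not the differences. Their concentrations differed (0.05 mM acrolein, 0.3 mM H2O2, 0.016 mM NEM), so these values compare the treatments as given and not the chemicals at equal dose. Acrolein was set against NEM in 39 genes, of which 7 were higher and 23 lower after acrolein, beside 24.1% and 25.8% of all probe sets tested (49.9% called in all). Without acrolein replicate 1 the counts were 4 and 19. Every one of the 10 sulfate uptake, activation and reduction genes was lower after acrolein than after NEM, with a median of -1.34 (-3.67 to -0.64), and in 10 of 10 no acrolein array reached the lowest NEM array, as was so for 21.6% of all probe sets. The other 29 genes had a median of -0.11 (-0.97 to 0.50), with 7 higher and 13 lower. The largest differences were -3.67 ± 0.33 for SUL1 (limma adjusted p = 2.19e-06), -2.77 ± 0.19 for SUL2 (adjusted p = 2.63e-07), -2.23 ± 0.21 for MET8 (adjusted p = 2.76e-06) and -1.98 ± 0.079 for MET3 (adjusted p = 2.4e-09).

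Between acrolein and NEM the other roles lay closer together. The SAM3 difference was 0.011 (95% interval -0.089 to 0.11), the SAM2 difference -0.054 (-0.15 to 0.045) and the MHT1 difference -0.11 (-0.25 to 0.037), and none of these passed the limma test. The STR3 difference was -0.11 (-0.23 to 0.007, adjusted p = 0.107), and with replicates of the same number taken as pairs its adjusted p was 0.028. Among the genes higher after acrolein than after NEM, HOM3 had the largest difference (0.50, limma adjusted p = 0.0177). Others included MET7 (0.45 ± 0.05, adjusted p = 1.36e-05), SAM4 (0.42, adjusted p = 0.0457), YCT1 and STR2 (0.26 ± 0.054, adjusted p = 0.00168). Among the regulators, CBF1 (-0.61 ± 0.12), MET28 (-0.49 ± 0.11) and MET30 (-0.37 ± 0.086) were lower after acrolein than after NEM, with adjusted p of 0.00116, 0.0024 and 0.00347. Of the 30 calls between acrolein and NEM, 9 were lost under at least 1 of the other settings tried: HOM2, HOM3, CYS3, CYS4, SAM1, SAM4, MMP1, MET31 and MET32. Leaving out acrolein replicate 1 alone lost HOM3 (difference 0.42, limma adjusted p = 0.0551), HOM2 (0.13, 0.0927), CYS3 (-0.13, 0.075) and CYS4 (-0.097, 0.0711). Without that array SAM4 (0.43, 0.0787), MMP1 (-0.11, 0.0819) and MET32 (-0.18, 0.0901) were also no longer called.

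**Figure D5:**
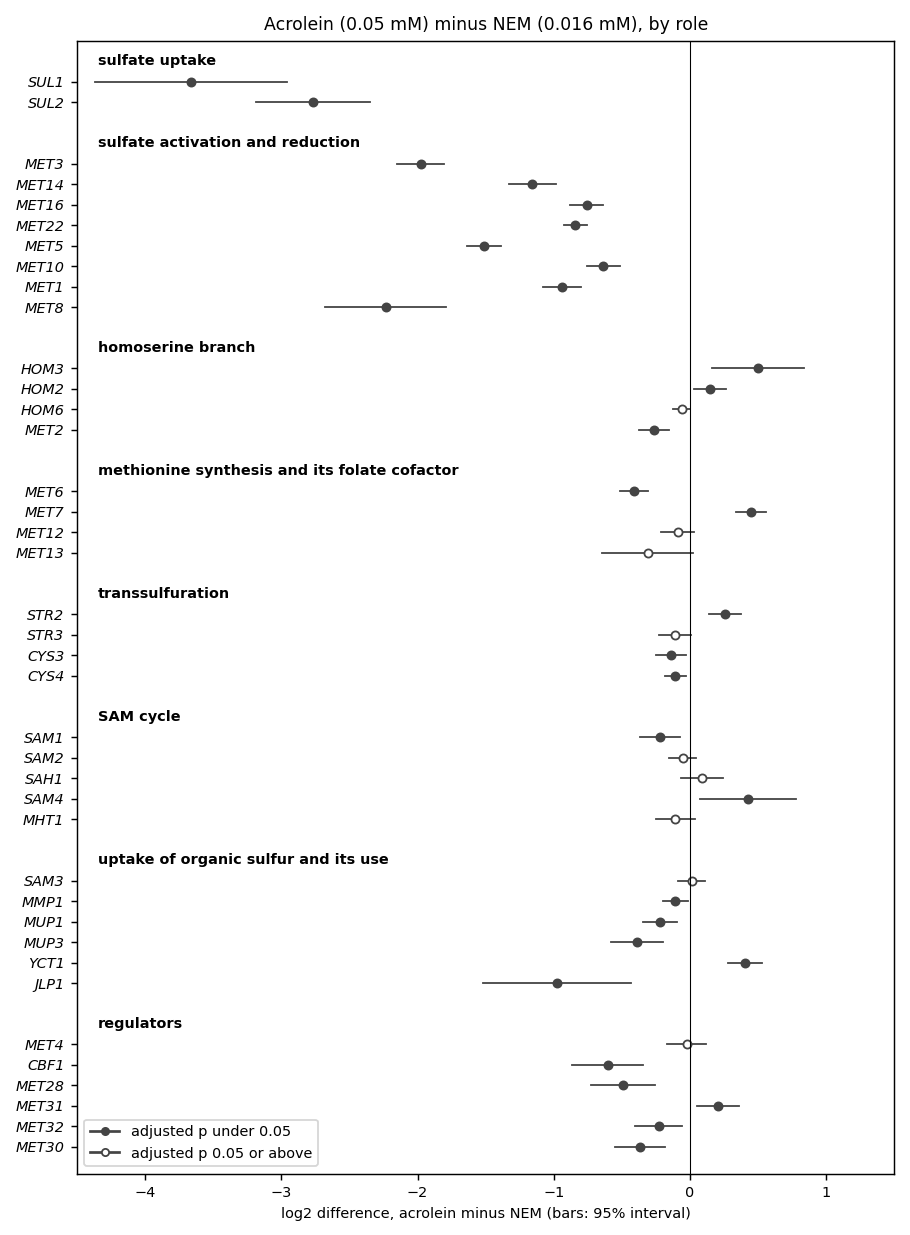
Difference between acrolein and NEM in log2 units (x axis, acrolein minus NEM) for each of the 39 sulfur genes (y axis, by role), with 95% intervals as bars and filled points for adjusted p under 0.05. All 10 genes of sulfate uptake, activation and reduction lie between -3.67 and -0.64, and the other 29 lie between -0.97 and 0.50.

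Against H2O2, acrolein gave higher values in 24 genes and lower values in 3, beside 25.9% and 29.9% of all probe sets (55.9% called in all). The largest differences were 1.49 ± 0.057 for MET16 (limma adjusted p = 2.99e-10), 1.18 ± 0.11 for MET28 (adjusted p = 1.33e-06), 1.13 ± 0.081 for MET32 (adjusted p = 1.19e-07) and 0.93 ± 0.09 for MUP3 (adjusted p = 1.86e-06). The 3 genes lower after acrolein than after H2O2 were CBF1 (-0.66 ± 0.12), MET3 (-0.34 ± 0.079, adjusted p = 0.00269) and MET13 (-0.46 ± 0.16, adjusted p = 0.0217). The MET13 call was lost without H2O2 replicate 4 (-0.38, adjusted p = 0.0688), and the difference was -0.29, still called, without acrolein replicate 1 and -0.13 without that array and H2O2 replicates 1 and 4 (adjusted p = 0.355). Without those 3 arrays the MET3 call was lost too (-0.21, adjusted p = 0.0854). NEM gave higher values than H2O2 in 26 genes and lower values in 2, beside 25.1% and 27.2% of all probe sets (52.3% called in all). Those lower after NEM were YCT1 and MET7 (-0.36 ± 0.05, adjusted p = 4.59e-05).

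A second list of sulfur genes outside the 39, held 28 genes, of which 26 were tested. It covers glutathione, thioredoxin and other sulfur compounds, and also partners of Met30 in its ubiquitin ligase (SKP1, CDC53, CDC34, HRT1) and genes of folate and one-carbon metabolism (SHM1, SHM2, ADE3, MTD1, DFR1). After acrolein 16 of the 26 rose and 6 fell, beside 27.2% and 36.9% of all tested probe sets. After H2O2 7 rose and 1 fell (9.23% and 10.6% of all), and after NEM 14 rose and 5 fell (26.4% and 32.2% of all). SKP1, CDC53 and HRT1 were among the genes that fell after acrolein and after NEM, and CDC34, SHM1, SHM2, ADE3 and MTD1 among those that rose after both. GSH1, which encodes the first enzyme of glutathione synthesis and uses cysteine, averaged 14.72 ± 0.081 on the acrolein arrays, 14.44 ± 0.11 on the H2O2 arrays and 14.89 ± 0.088 on the NEM arrays, against 13.07 ± 0.16 on the control arrays (SD, n = 4 each). It rose by 1.65 ± 0.077 after acrolein (limma adjusted p = 8.21e-10), by 1.36 ± 0.077 after H2O2 (adjusted p = 2.23e-08) and by 1.82 ± 0.077 after NEM (adjusted p = 2.73e-10). GSH2, glutathione synthetase, rose by 0.66 ± 0.08 after H2O2 (adjusted p = 4.91e-05) and fell after NEM (-0.77 ± 0.08, adjusted p = 2.12e-06).

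The glutathione transporter gene OPT1 rose by 1.64 ± 0.083 after acrolein (limma adjusted p = 1.87e-09) and by 1.49 ± 0.083 after NEM (adjusted p = 4.32e-09), with a difference of 0.09 ± 0.083 after H2O2 that was not called. DUG2, which acts in glutathione breakdown, rose by 0.96 ± 0.053 with acrolein (adjusted p = 4.6e-09) and by 1.37 ± 0.053 after NEM (adjusted p = 1.24e-10). TRR1, thioredoxin reductase, rose by 0.96 ± 0.086 on acrolein arrays (adjusted p = 5.98e-07), by 1.24 ± 0.086 on H2O2 arrays (adjusted p = 1.82e-07) and by 0.93 ± 0.086 on NEM arrays (adjusted p = 7.64e-07). The sulfatase gene BDS1 rose by 2.21 ± 0.43 after acrolein (adjusted p = 0.000496), as did YML082W (1.12 ± 0.25, adjusted p = 0.00162). SEO1, a putative permease gene, rose by 2.89 ± 0.32 after NEM (adjusted p = 3.68e-06). Its H2O2 difference of 1.01 ± 0.32 (adjusted p = 0.0383) came with overlapping arrays and was lost on leaving out control replicate 1, 2 or 4 or H2O2 replicate 1, 3 or 4, between 0.76 and 1.05.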

How the data were processed

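RNA of 16 yeast samples was measured on 16 one-colour Affymetrix arrays, and the log2 values used are those the authors deposited, made with GCRMA per the submitters' processing notes (no version is given in the sources used here). GCRMA corrects background from probe sequence, quantile-normalises arrays and sums probes, so values are relative to the other arrays and a shift common to most transcripts would not show. The arrays' medians lay between 11.85 and 11.92. Of 10928 probe sets, 166 controls and 1747 taken from the annotation as for another yeast species were left out, as were 3181 with 1 constant value on all arrays. The brightest probe set stood for each gene (49 others dropped). Of the 5449 named genes 5404 were tested, beside 381 probe sets without a gene name. Most constant probe sets thus had no gene name, and the species of probe sets without one was not checked. The remaining 5785 were fitted with limma 3.58.1 in R 4.3.3 (4 group means, 12 residual degrees of freedom, two-sided moderated tests, Benjamini-Hochberg adjustment over all 5785). Groups were taken from the sample labels. Genes were named through GEO's platform annotation and symbols updated through a RefSeq gene table. Genome coordinates and sequences were not used here. The number of arrays limits the precision: the median SE of a difference was 0.086.

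Every one of the 39 genes is described. Values on each array are given for up to 8 called genes with the largest change per treatment, up to 4 per pair of treatments, the regulators and any gene with a bound, and up to 4 called genes per treatment are named from the second list. The genes and lists were chosen with earlier results of these data known. Replicate numbers are shared between groups. Same-numbered arrays deviated together from their group means in 3 comparisons: Pearson's r was 0.20 to 0.45 for acrolein with control, 0.32 to 0.56 for NEM with control, and 0.32 to 0.45 for acrolein with NEM. For H2O2 with the other 3 groups, r was -0.36 to -0.05 at replicates 1 and 2 and 0.39 to 0.69 at replicates 3 and 4. The numbers were read as pairing the acrolein, NEM and control arrays. The H2O2 arrays followed the numbers only at replicates 3 and 4, and as a group they were not read as paired. The model itself holds no pairing. An alternative with the replicate number as a block was fitted to all 16 arrays, H2O2 included. Its block effects and its spread thus also rest on H2O2 arrays that did not follow the numbers at replicates 1 and 2. The alternatives tried were other centring and normalisation, filters, array weights, a stricter threshold, only the compared groups, the pairing, and each array left out. Scripts were tested on simulated data.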

Additional observations from a re-analysis of the deposited data

Results flagged for a closer look

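In 10 of 156 gene and group combinations 1 of the 4 arrays stood far from the other 3, by Dixon's test at the 95% level, and chance alone gives about 7.8, 5% of them. Acrolein replicate 3 was lowest for MET5 (13.14) and highest for SAH1 (14.87), replicate 1 was lowest for MET13 (12.01) and replicate 4 lowest for YCT1 (12.28). NEM replicate 3 was highest for MET31 (12.30). Control replicate 3 was lowest for SUL2 (8.45) and highest for SAM3 (13.36), replicate 1 was highest for MET10 (13.12) and HOM3 (12.15), and replicate 2 was lowest for SAM2 (14.38).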

How the results depend on the processing

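Over 187 results for single genes and 26 alternative settings, 4699 of 4862 values kept their direction and their side of the threshold, 154 were no longer called, 4 became called and 5 changed sign. The sign changes all concern SAM3 between acrolein and NEM, which was never called: -0.00058 with arrays centred on their medians, -0.016 without acrolein replicate 1 and H2O2 replicates 1 and 4, and -0.016 to 0.036 on leaving out each array. Counts of genes rarely moved by over 1.5 times. The genes lower after H2O2 than in control numbered 3 with array weights, 0 at adjusted p under 0.01, 0 without the 3 arrays just named and 0 to 1 on leaving out each array (0 without H2O2 replicate 2). Those lower after NEM than in control numbered 1 at adjusted p under 0.01 and 1 to 2 on leaving out each array. Those lower after acrolein than after H2O2 numbered 1 without the 3 arrays. Those higher after acrolein than after NEM numbered 4 with array weights, 3 at adjusted p under 0.01, 4 without the 3 arrays and 3 to 7 on leaving out each array (4 without acrolein replicate 1 or 3 or NEM replicate 4, 3 without NEM replicate 2).

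With the replicate number as a block (the pairing), MET13 between acrolein and control (adjusted p = 0.0466) and STR3 between acrolein and NEM (adjusted p = 0.028) were called, MUP1 between H2O2 and control was not (adjusted p = 0.052), and no other call among the 187 results changed. Those results leave out most genes not called without the block. Over all 39 genes the block gave 26 higher and 4 lower between acrolein and control, 7 and 1 between H2O2 and control, 30 and 2 between NEM and control, 25 and 4 between acrolein and H2O2, 28 and 2 between NEM and H2O2, and 7 and 24 between acrolein and NEM. The cause of these changes was not tested. The share of all probe sets called with the block is not given here, so these counts cannot be read against it. The leaving out of acrolein replicate 1 and H2O2 replicates 1 and 4 together was chosen after seeing the data. The precision is set by 4 arrays a group, and JLP1 lies near background.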
